A study of Mus musculus with 10 samples.

Results

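The 9 genes described here regulate the formation of the sensory patches of the inner ear and of the hair cells within them. They were chosen by name, as the probe sets whose platform gene symbol is Sox2, Sox21, Gata3, Prox1, Lgr5, Cdkn1b, Atoh1, Pou4f3 or Gfi1, with the probe set of highest mean over the arrays standing for each gene. All 9 of 9 were found, among 19938 genes measured. Mouse embryos were taken at embryonic day 12.5 (E12.5), and each was measured on its own Affymetrix Mouse Gene ST 1.0 chip, with the tissue of both ears pooled. Mutants (5 arrays) were T-Cre conditional knockouts of Tbx1, and controls (5 arrays) were T-Cre conditional Tbx1 heterozygotes, so T-Cre was present in both groups and the controls were not wild type at Tbx1. The tissue was the otic vesicle with the periotic mesenchyme around it. T-Cre acts in early mesoderm, so the otic epithelium, from which the sensory patches arise, is not the tissue in which Tbx1 was targeted.

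As background, the sensory patches of the cochlea and vestibule arise from a prosensory domain of the otic epithelium that is marked by Sox2. Cells of this domain leave the cell cycle, and those that then express Atoh1 become hair cells, with Pou4f3 and Gfi1 acting after Atoh1, while Notch signalling holds their neighbours as supporting cells. Several of these genes also act elsewhere in the head: Sox2 and Sox21 in neural progenitors, Atoh1 in the rhombic lip of the hindbrain, Prox1 in lens and lymphatic endothelium, Pou4f3 in sensory neurons, and Gfi1 in blood cells.

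In these arrays no member rose or fell past the threshold in the mutants. The limma adjusted p, taken over all probe sets with 1 gene symbol, lay between 0.624 and 0.986 for the 9 members, with a threshold of 0.05. The count was thus 0 of 9, against 0.0100% of all genes (2 of 19938). At an unadjusted limma p under 0.05 it was also 0 of 9, against 7.82% of all genes, and by the exact permutation test of the 10 arrays it was 1 of 9 (Gfi1), against 8.00% of all genes. For each member the 2 groups overlapped, while 1.83% of all genes had groups that did not (1.27% higher and 0.552% lower in mutants). Values are log2 signals, and each log2 difference is mutant minus control. Of the members, 6 had a higher and 3 a lower mean in mutants, with a median log2 difference of 0.04, beside -0.0021 for all genes. In whole tissue, fewer cells of a type and less RNA per cell cannot be told apart.

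**Figure D1:**
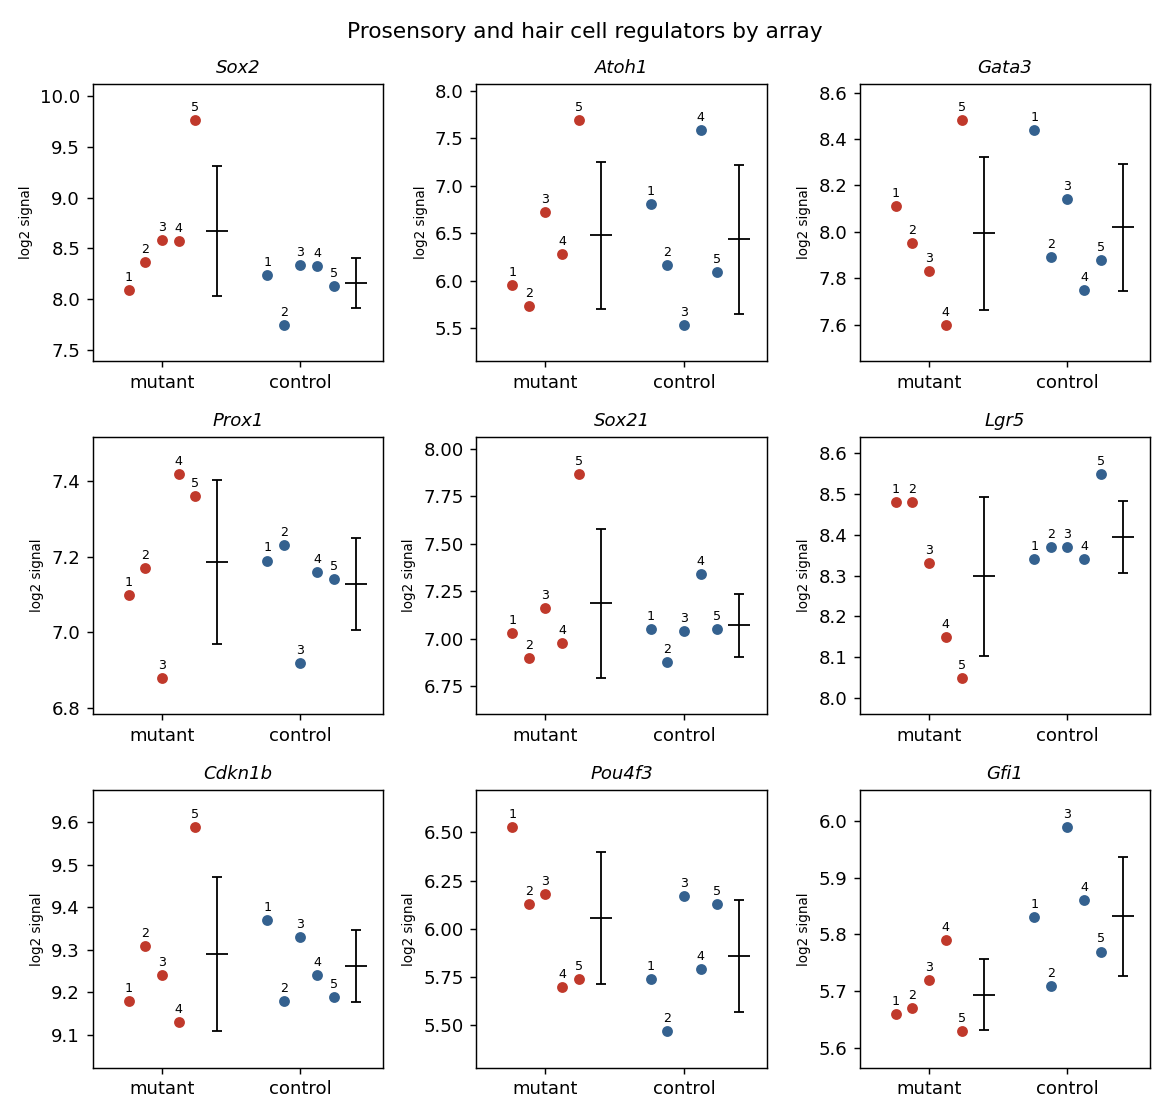
Log2 signal of the 9 genes in each array, mutants in red and controls in blue, with the replicate number above each point and the mean and SD (n = 5) as a black bar. Mutant 5 has the highest value of Sox2 (9.76), Sox21 (7.87), Atoh1 (7.69), Gata3 (8.48) and Cdkn1b (9.59), and no gene separates the 2 groups.

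Facts of the arrays that touch these results were as follows. Pairs of arrays had a correlation of 0.985 to 0.993 over all probe sets. Tbx1 read 7.83 ± 0.36 in mutants and 8.71 ± 0.31 in controls (SD, n = 5 each), and its limma adjusted p was 0.451. The immediate early gene Fos split both groups by replicate number, with 8.82 to 9.08 for numbers 1 to 3 against 5.49 to 5.91 for numbers 4 and 5. These are treated below as 2 classes of arrays, which the labels do not name. The labels give no sex, so it was inferred from the Xist and Y-linked signals. By these there were 1 male and 4 female embryos among the mutants and 2 male and 3 female among the controls. Y-linked probe sets in female embryos, taken as a measure of background, reached 4.36, and each of the 9 members lay above that value on all 10 arrays, as did the mean of 86.2% of all genes. This is a low bar and does not by itself show expression. The hair cell gene Tmc1, looked up after the values were seen, passed it with means of 4.37 in mutants and 4.38 in controls. Array medians were 6.19 to 6.27, and the group means of Gfi1 (5.69 and 5.83) and Pou4f3 (6.05 and 5.86) lay below them. Of the otic epithelium markers, 17 of 17 measured had a mean above that background, a share near that of all genes. Oc90, a secreted otoconial protein of the otic epithelium, read 8.35 to 10.57 in mutants and 9.86 to 10.54 in controls, with mutant 1 lowest. Pou3f4, a factor of the periotic mesenchyme, read 7.39 to 8.17 in mutants and 7.64 to 7.99 in controls.

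The promoters of Sox2, Sox21 and Atoh1 are shown because these members are set beside neural marker genes below. The sequences are from RefSeq (GRCm38.p6), run 5′ to 3′ along the gene's strand, and cover 250 bases before to 50 bases after the annotated start. Capitals mark the E-box CANNTG, the motif bound by basic helix-loop-helix factors such as Atoh1.
Sox2 (chr3:34649745-34650044, plus strand): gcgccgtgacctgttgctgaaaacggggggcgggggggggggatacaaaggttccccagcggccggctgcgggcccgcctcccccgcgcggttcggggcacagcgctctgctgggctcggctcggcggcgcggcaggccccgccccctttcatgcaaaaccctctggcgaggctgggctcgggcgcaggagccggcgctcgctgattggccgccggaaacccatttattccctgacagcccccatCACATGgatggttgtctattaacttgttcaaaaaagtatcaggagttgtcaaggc
Sox21 (chr14:118236981-118237280, minus strand): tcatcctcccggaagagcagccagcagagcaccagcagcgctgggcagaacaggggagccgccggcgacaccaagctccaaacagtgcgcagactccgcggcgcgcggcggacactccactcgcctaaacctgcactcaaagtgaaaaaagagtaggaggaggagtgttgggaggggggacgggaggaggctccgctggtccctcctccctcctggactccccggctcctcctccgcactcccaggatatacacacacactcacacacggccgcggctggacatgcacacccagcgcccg
Atoh1 (chr6:64728875-64729174, plus strand): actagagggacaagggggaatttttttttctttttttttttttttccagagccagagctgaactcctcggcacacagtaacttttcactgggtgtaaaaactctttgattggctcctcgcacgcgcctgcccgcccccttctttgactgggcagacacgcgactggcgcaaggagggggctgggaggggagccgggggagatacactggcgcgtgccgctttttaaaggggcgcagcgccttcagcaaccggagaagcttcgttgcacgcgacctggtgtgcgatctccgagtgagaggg
The Sox2 window holds 1 E-box (CACATG), and the Sox21 and Atoh1 windows hold 0. An E-box was found in 72.3% of all 32851 windows of this length. The SOX core CATTGT, searched on both strands, was in 0 of these 3 windows and in 12.6% of all windows. The letters GATA, also searched on both strands, occurred 2 times in the Sox2 window and 1 time in each of the Sox21 and Atoh1 windows, and were in 57.9% of all. These are descriptions of the letters in the windows, and 7 of the 9 members had a window in the table.

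Among the genes that specify and mark the prosensory domain, Sox2, the high-mobility-group factor required for that domain, had the largest difference of the 9 members, and it did not pass. Its log2 signal was 8.09, 8.37, 8.58, 8.57 and 9.76 in mutants 1 to 5, against 8.24, 7.75, 8.34, 8.33 and 8.13 in controls 1 to 5. Of the mutants, 4 of 5 lay above the highest control, and mutant 1 lay within the control range. The mean was 8.67 ± 0.64 in mutants and 8.16 ± 0.25 in controls (SD, n = 5 each), a log2 difference of 0.52 (95% interval -0.02 to 1.05), or 1.43-fold (0.99 to 2.07). The limma adjusted p was 0.624, and the exact two-sided permutation p, unadjusted, was 0.0952. The labels do not pair arrays by number. With the replicate number as a block the 95% interval was 0.06 to 0.98, which leaves out 0, with an unadjusted limma p of 0.0316 and an adjusted p of 0.452. One array set the size of this difference: without mutant 5 it was 0.24 (-0.04 to 0.53, limma adjusted p 0.699). Without mutant 1 the difference was 0.66 with a limma adjusted p of 0.594. The unadjusted exact permutation p was then 0.00794, the smallest that 4 against 5 arrays can give. Mutant 1 was the only mutant within the control range, so this p followed from its removal and is not read as support. With any other 1 array left out, the exact permutation p was 0.0794 to 0.238.

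Sox21, a related repressor of the same family, showed no comparable difference. Its signal was 7.03, 6.90, 7.16, 6.98 and 7.87 in mutants, against 7.05, 6.88, 7.04, 7.34 and 7.05 in controls, numbered 1 to 5. The 4 mutants other than mutant 5 lay within the control range. Its log2 difference was 0.12 (95% interval -0.23 to 0.46), and -0.05 (-0.26 to 0.15) without mutant 5.

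Gata3, a zinc-finger factor needed for otic morphogenesis, did not differ beyond its spread. It read 7.60 to 8.48 in mutants and 7.75 to 8.44 in controls, nearly the same range. The log2 difference was -0.03 with a 95% interval of -0.37 to 0.32. Prox1, a homeodomain factor of the prosensory domain and later of supporting cells, read 6.88 to 7.42 in mutants and 6.92 to 7.23 in controls. Its log2 difference was 0.06 (-0.16 to 0.28), and array 3 was the lowest of both groups.

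Lgr5, the R-spondin receptor that marks WNT-responsive cells and later supporting cells, was measured with little spread in the controls. Its signal was 8.48, 8.48, 8.33, 8.15 and 8.05 in mutants, against 8.34, 8.37, 8.37, 8.34 and 8.55 in controls. Mutants 3, 4 and 5 lay below the lowest control, mutant 3 only just, and mutants 1 and 2 lay within the control range. The log2 difference was -0.09 (95% interval -0.29 to 0.10), and the limma adjusted p was 0.799.

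Cdkn1b, the cyclin-dependent kinase inhibitor whose expression marks the cell cycle exit of the prosensory cells, likewise stayed within its spread. It read 9.13 to 9.59 in mutants and 9.18 to 9.37 in controls, with a log2 difference of 0.03 (95% interval -0.15 to 0.21). On the linear scale this interval runs from 0.90-fold to 1.16-fold. A second probe set of Cdkn1b (10542317) pointed the other way without passing, at 8.02 ± 0.33 in mutants and 8.13 ± 0.30 in controls (SD, n = 5 each), a log2 difference of -0.10 (-0.46 to 0.25, limma adjusted p 0.891). The direction for Cdkn1b is therefore not settled by these probe sets.

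Atoh1, the basic helix-loop-helix factor that starts hair cell differentiation, was the most variable member and did not follow the genotype. Its signal was 5.96, 5.74, 6.73, 6.28 and 7.69 in mutants, against 6.81, 6.17, 5.54, 7.59 and 6.09 in controls. It was highest in mutant 5 and control 4, 1 array of each group, and the groups covered almost the same range. The log2 difference was 0.04 with a 95% interval of -0.81 to 0.89, which on the linear scale runs from 0.57-fold to 1.85-fold. The sign depended on single arrays: the difference was -0.26 without mutant 5 and 0.33 without control 4. With both of these arrays left out it was 0.03 (-0.52 to 0.57), a setting chosen after the values were seen.

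Pou4f3, the POU-domain factor on which hair cell survival depends, had differences of opposite sign in the 2 classes of arrays, without passing a test of that change. Its signal was 6.53, 6.13, 6.18, 5.70 and 5.74 in mutants, against 5.74, 5.47, 6.17, 5.79 and 6.13 in controls. Mutants 1 and 3 lay above the highest control, mutant 3 only just, and the other mutants lay within the control range. Over all arrays the log2 difference was 0.20 (95% interval -0.17 to 0.56), with a limma adjusted p of 0.773, and without mutant 1 it was 0.08.

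Gfi1, a zinc-finger repressor that acts after Pou4f3 in hair cells, had the smallest spread of the 9. Its signal was 5.66, 5.67, 5.72, 5.79 and 5.63 in mutants, against 5.83, 5.71, 5.99, 5.86 and 5.77 in controls. Mutants 1, 2 and 5 lay below the lowest control. In each of the 5 same-number pairs the mutant was the lower, but the labels state no such pairs. With the replicate number as a block, the 95% interval of the log2 difference was -0.31 to 0.03 (unadjusted limma p 0.102, adjusted 0.571). The mean was 5.69 ± 0.06 in mutants and 5.83 ± 0.10 in controls (SD, n = 5 each), a log2 difference of -0.14 (95% interval -0.30 to 0.02), or 0.91-fold. The limma adjusted p was 0.655, and the exact permutation p of 0.0397 is unadjusted. That exact p was 0.111 after quantile normalization and 0.0714 after median centring, and it ranged from 0.0238 to 0.0794 when single arrays were left out.

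**Figure D2:**
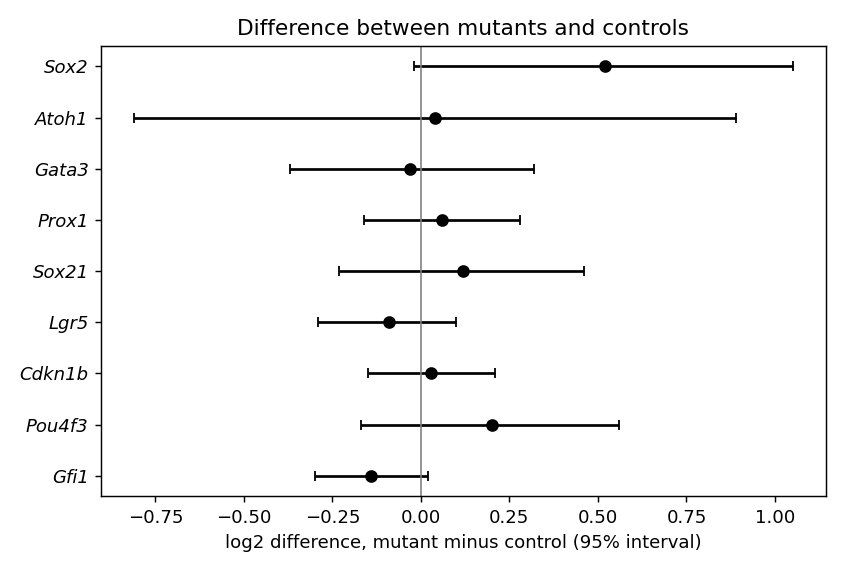
Log2 difference, mutant minus control, of each of the 9 genes with its 95% interval from limma (10 arrays, without the replicate block). All 9 intervals include 0, from the narrow one of Gfi1 (-0.30 to 0.02) to the wide one of Atoh1 (-0.81 to 0.89).

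The members differed widely in how much they varied between embryos of 1 group. Ranked by within-group SD among all 19938 genes, Atoh1 (SD 0.78) stood at the 99.8th percentile, Sox2 (0.49) at the 98.9th and Pou4f3 (0.32) at the 96.2nd, while Gata3 and Sox21 (0.30 each) were at the 95.6th. Prox1 (0.17), Lgr5 (0.15) and Cdkn1b (0.14) stood at the 74.4th, 62.7th and 54.4th, and Gfi1 (0.09) at the 13.5th. Precision therefore ran from a standard error of 0.07 for Gfi1 to 0.39 for Atoh1, beside a median of 0.09 over all genes.

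Within the classes of array numbers, some members took opposite directions. In arrays numbered 1 to 3 (3 mutants, 3 controls) the log2 difference was 0.49 for Pou4f3 (95% interval 0.10 to 0.87) and 0.07 for Lgr5 (-0.11 to 0.26). In those numbered 4 and 5 (2 mutants, 2 controls) it was -0.24 for Pou4f3 (-0.62 to 0.13) and -0.35 for Lgr5 (-0.65 to -0.04). The term for the change of the genotype difference between the classes was -0.73 ± 0.27 (SE) for Pou4f3 and -0.42 ± 0.14 for Lgr5. Its unadjusted limma p was 0.0216 and 0.01 for these genes, which makes 2 of 9 members under 0.05 against 2.53% of all genes, but the limma adjusted p was 1 for both, and 0 genes passed. Sox2 was higher in mutants in both classes, by 0.24 (-0.13 to 0.60) and 0.93 (-0.01 to 1.88), and Gfi1 was lower in both, by -0.16 and -0.11. No value within a class passed after adjustment by limma. Each class holds too few arrays for an exact permutation p under 0.05, the smallest being 0.1 for 3 against 3.

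**Figure D3:**
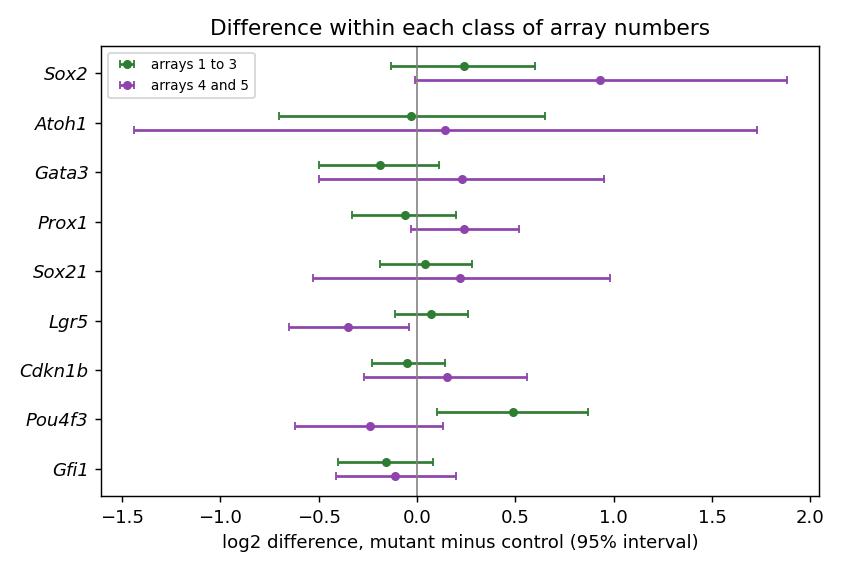
Log2 difference, mutant minus control, with its 95% interval from limma, computed only in arrays numbered 1 to 3 (green, 3 against 3) and only in those numbered 4 and 5 (purple, 2 against 2). Pou4f3 and Lgr5 lie on opposite sides of 0 in the 2 classes, Sox2 and Gfi1 on the same side.

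The levels of neural marker genes across the arrays are given here beside Sox2, Sox21 and Atoh1. The list of hindbrain and neural tube markers (21 of 23 measured, 21 above background) had a mean, relative to the control mean, of -0.10 to 0.99 in mutants and -0.14 to 0.34 in controls, highest in mutant 5 and next in control 4. En2, a homeobox gene of the midbrain and anterior hindbrain, chosen after its values were seen, read 4.74, 4.55, 4.17, 4.43 and 8.81 in mutants, against 4.68, 4.81, 5.12, 7.05 and 4.71 in controls. The same pair of arrays, mutant 5 and control 4, was thus highest for En2, for Atoh1 and for Sox21. Of the same list, Zic1, Zic2, Dbx2, Foxa2 and Egr2, looked up after the values were seen, peaked in neither mutant 5 nor control 4. Each other measured marker of the list was highest in mutant 5 or control 4. Sox2 was highest in mutant 5, at 9.76, and its 8.33 in control 4 was no higher than in control 3. The part of this neural signal in the Sox2 difference was not tested beyond leaving arrays out: without mutant 5 and control 4 the Sox2 difference was 0.29 (95% interval -0.01 to 0.59, limma adjusted p 0.801).

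**Figure D4:**
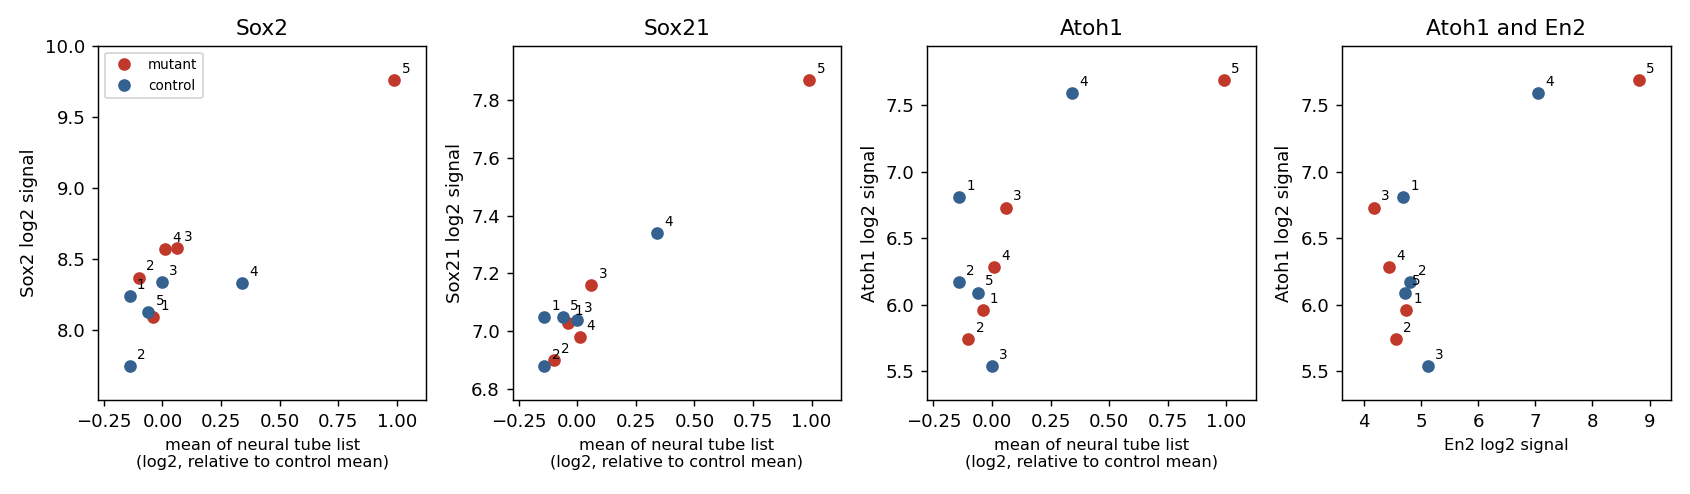
Log2 signal of Sox2, Sox21 and Atoh1 against the mean of the neural tube list (log2, relative to the control mean), and of Atoh1 against En2, 1 numbered point per array, mutants in red and controls in blue. Mutant 5 lies at the upper right of each panel, and control 4 joins it for Sox21 and Atoh1 but not for Sox2.

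Correlations across the 10 arrays were computed for 36 pairs of members and for 36 pairs of a member with a marker list, each set of 36 adjusted by Benjamini-Hochberg. Sox21 followed the neural tube list most closely, with Pearson r = 0.98 (permutation p = 0.00048, adjusted 0.0173) and Spearman rho = 0.67 (permutation p = 0.037, adjusted 0.346). Without the 2 arrays farthest from its median (control 4 and mutant 5) r was 0.64, and in the 6 arrays numbered 1 to 3 it was 0.75. For Sox2 and the same list r was 0.89 (permutation p = 0.0115, adjusted 0.0825) and rho 0.67 (permutation p = 0.0385, adjusted 0.346), falling to r = 0.26 without control 2 and mutant 5. For Atoh1 r was 0.76 (permutation p = 0.00856, adjusted 0.0825) and rho 0.45 (permutation p = 0.194, adjusted 0.709), and without control 4 and mutant 5 r was -0.0031. In the arrays numbered 1 to 3, r was 0.68 for Sox2 and -0.04 for Atoh1. The relation of Atoh1 with the mean of the neural tube list thus rests on control 4 and mutant 5. That of Sox2 was r = 0.42 without mutant 5 and 0.72 without mutant 5 and control 4, so its size depended on which arrays were left out. With the ganglion and neuron list, Sox2 had r = 0.83 (permutation p = 0.0113, adjusted 0.0825) and rho = 0.48 (permutation p = 0.168, adjusted 0.709). That r was -0.10 without control 2 and mutant 5, 0.62 without mutant 5, and 0.77 in the arrays numbered 1 to 3.

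Between members, 2 of 36 pairs passed by Pearson r. The largest r, 0.87 for Sox2 with Sox21, did not pass (permutation p = 0.0152, adjusted 0.137), and it was 0.37 without mutant 5. Atoh1 and Sox21 had r = 0.81 (permutation p = 0.00224, adjusted 0.0403) and rho = 0.66 (permutation p = 0.0433, adjusted 0.312), with r = 0.45 without control 4 and mutant 5. Gata3 and Cdkn1b had r = 0.82 (permutation p = 0.00171, adjusted 0.0403) and rho = 0.73 (permutation p = 0.0204, adjusted 0.287), with r = 0.54 without control 1 and mutant 5. In the arrays numbered 1 to 3, r was 0.49 for Atoh1 with Sox21 and 0.63 for Gata3 with Cdkn1b. Prox1 and Pou4f3 ran in opposite directions by rank, with rho = -0.89 (permutation p = 0.00111, adjusted 0.04) and r = -0.63 (permutation p = 0.0504, adjusted 0.227). Their r was -0.59 without mutants 3 and 4 and -0.55 in the arrays numbered 1 to 3. Gfi1 with the otic epithelium list had r = 0.79 (permutation p = 0.00635, adjusted 0.0825) and rho = 0.85 (permutation p = 0.0031, adjusted 0.112). Neither the r nor the rho passed after adjustment. The r was 0.54 without mutant 5 and control 3, 0.90 in the arrays numbered 1 to 3, and 0.60 on deviations from the group means. The otic epithelium list (mean relative to controls) lay between -0.12 and -0.08 in mutants and between -0.10 and 0.10 in controls.

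The genes whose log2 signal was most like that of a member over the 10 arrays were found among the 17181 genes above background, and these r are maxima over that many genes, given without a test. For Atoh1 they were Luzp2 (r = 0.94), Olig3 (0.92) and Slc44a5 (0.91). Olig3, a factor of dorsal hindbrain progenitors and a member of the neural tube list, read 5.73 to 8.25 in mutants and 5.65 to 7.17 in controls. As for Atoh1, mutant 5 and control 4 were the highest and control 3 the lowest, and with mutant 5 left out the r of Atoh1 with Olig3 was 0.97. For Sox21 the most alike genes were Ptpn5 (0.99), Cadm4 (0.99) and Gdpd2 (0.98), and for Sox2 they were Zfp811 (0.98), Xpr1 (0.97) and Micu3 (0.97).

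For Pou4f3 the most alike genes were Isl2 (0.96), Synm (0.96) and Thoc5 (0.95). Isl2, a LIM-homeodomain factor of sensory and motor neurons, read 8.69, 8.27, 8.28, 7.52 and 7.70 in mutants, against 7.65, 7.41, 8.49, 7.55 and 8.06 in controls. Mutant 1 was highest and control 2 lowest for both Pou4f3 and Isl2. With the ganglion and neuron list, Pou4f3 had r = 0.43 (permutation p = 0.22, adjusted 0.581) and rho = 0.72 (permutation p = 0.0236, adjusted 0.346). That r was 0.88 without mutant 5, 0.94 in the arrays numbered 1 to 3, and 0.00253 without control 2 and mutant 1. The remaining members had Gm10589 (0.94), Syt3 (0.93) and Sccpdh (0.92) for Gata3, and Zdbf2 (0.95), Cdh13 (0.91) and Braf (0.90) for Prox1. They had Nme6 (0.95), Actl11 (0.93) and Ndufs8 (0.93) for Lgr5, Hmgcll1 (0.93), Leprotl1 (0.91) and Msra (0.91) for Cdkn1b, and Tas2r118 (0.92), Tmem41a (0.91) and A530006G24Rik (0.90) for Gfi1.

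Among the genes that act on the prosensory cells, the Notch pathway and Id genes, which restrain hair cell fate, had 20 of 20 members measured and 0 past the threshold. Their median log2 difference was 0.03, with 12 higher and 8 lower. The 2 members of smallest p were Hey2, a Notch-responsive repressor of hair cell fate, and Notch3, a Notch receptor. Hey2 read 7.97, 8.21, 8.21, 7.82 and 7.82 in mutants, against 7.56, 7.29, 7.60, 7.58 and 7.75 in controls. Its groups did not overlap, as for 1.27% of all genes in that direction. The log2 difference of Hey2 was 0.45 ± 0.11 (SE) with a limma adjusted p of 0.569. Notch3 had -0.19 ± 0.08 with a limma adjusted p of 0.602.

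Other prosensory and inductive genes had 20 of 21 measured, 0 past the threshold, and a median log2 difference of -0.01, with 8 higher and 12 lower. Bmpr1b, a BMP receptor, had -0.18 ± 0.08 (SE), and Fgf20, an FGF ligand of the prosensory domain, had -0.19 ± 0.09, with limma adjusted p of 0.602 and 0.616. Hair cell differentiation genes had 27 of 30 measured, 26 of them above background, 0 past the threshold and a median of 0.02, with 14 higher and 13 lower. Calb2, a calcium-binding protein of hair cells and neurons, had 0.39 ± 0.20 (SE), and Ikzf2, a zinc-finger factor of outer hair cells, had 0.19 ± 0.09. The mean level of the hair cell list, relative to the control mean, ran from -0.04 to 0.07 in mutants and from -0.06 to 0.08 in controls, so it overlapped almost fully.

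CDK inhibitors and cell cycle genes of the G1 phase had 18 of 19 measured and 0 past the threshold, with a median log2 difference of 0.02, 10 higher and 8 lower. Ccnd1, cyclin D1, had -0.19 ± 0.09 (SE), and Rb1, the retinoblastoma gene, had 0.23 ± 0.13, with limma adjusted p of 0.602 and 0.663. The paralogues of the 9 members had 16 of 17 measured, 0 past the threshold and a median of -0.01, with 7 higher and 9 lower. Pou4f1, the paralogue of Pou4f3 in sensory neurons, had 0.44 ± 0.18 (SE, limma adjusted p 0.583), and Atoh7, known from the retina, had -0.19 ± 0.09 (0.639).

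**Figure D5:**
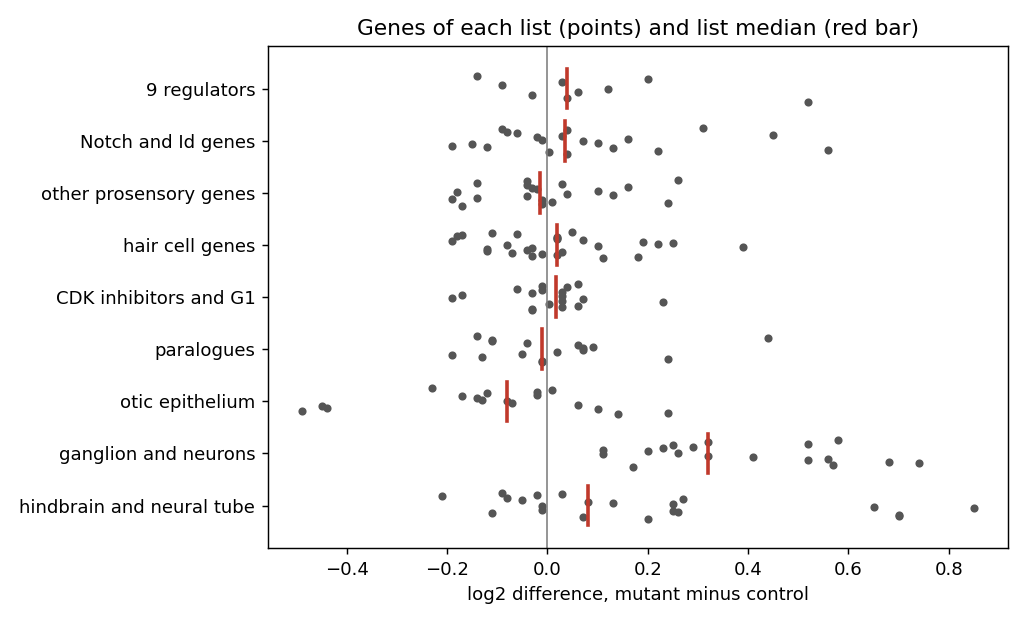
Log2 difference, mutant minus control, of each measured gene (points) in the 9 regulators and 8 further lists, with the median of each list as a red bar. The median of the 9 regulators is 0.04, near those of the Notch (0.03) and hair cell (0.02) lists, while that of the ganglion and neuron list is 0.32.

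Markers of other cell types that the dissected tissue could hold had 0 genes past the threshold. The ganglion and neuron list had 18 of 18 members higher in mutants, beside 49.1% of all genes, with a median log2 difference of 0.32. These markers were measured on the same arrays and are not independent of each other. The list mean, relative to controls, was 0.03 to 0.94 in mutants, lowest in mutant 4 and highest in mutant 5. In controls it was -0.52 to 0.29, lowest in control 2, and controls 3, 4 and 5 lay above mutant 4. Neurod4 had 0.74 ± 0.25 (SE, limma adjusted p 0.569) and Elavl4 had 0.56 ± 0.22 (0.583). For the neural tube list the median was 0.08, with 13 higher and 8 lower, and the members of smallest p were Pax3 (0.70 ± 0.24, SE) and Pax6 (0.70 ± 0.28). The otic epithelium list had a median of -0.08, with 5 higher and 12 lower, and the members of smallest p were Dlx5 (-0.44 ± 0.19, SE) and Dlx6 (-0.45 ± 0.20). The lens list, of interest for Sox2 and Prox1, had a mean level, relative to controls, of 1.42 in mutant 1, -0.06 to 0.05 in the other mutants and -0.11 to 0.09 in controls. Its members of smallest p were the crystallin Cryba1 (1.02 ± 0.60, SE) and the lens filament gene Bfsp2 (0.12 ± 0.09). Cryaa, another crystallin, chosen after its values were seen, read 11.19 in mutant 1, 5.56 to 5.86 in the other mutants, and 5.54 to 5.97 in controls. Cryab, Foxe3, Bfsp1 and Maf of the same list, also looked up after the values were seen, were not highest in mutant 1. In mutant 1 Prox1 (7.10) lay within the control range and Sox2 (8.09) was the lowest of the mutants, and the part of lens RNA in either value was not tested. Blood cell and macrophage markers, of interest for Gfi1, had a median of -0.06 with 3 higher and 11 lower, with the smallest p for Pf4 (-0.41 ± 0.15, SE) and Hba-x (-0.26 ± 0.19). Endothelial markers, of interest for Prox1, had a median of 0.13 with 10 higher and 4 lower. Flt1, a VEGF receptor, had 0.28 ± 0.09 (SE, limma adjusted p 0.569). Its groups did not overlap, as for 1.27% of all genes in that direction. Kdr, another VEGF receptor, had 0.19 ± 0.08 (SE, limma adjusted p 0.583). The part of blood and endothelial RNA in the Gfi1 and Prox1 values was not tested. The periotic mesenchyme list had a median of -0.13, with 2 higher and 13 lower, and its mean level was lowest in mutant 5, at -0.41. Its members of smallest p were Foxc2 (-0.28 ± 0.16, SE) and Pdgfra (-0.15 ± 0.09). The median was -0.06 for neural crest and Schwann cell precursors, with 4 higher and 5 lower and differences from -0.13 to 0.65. The members of smallest p, both higher, were Ednrb (0.38 ± 0.11, SE, limma adjusted p 0.569) and Tfap2a (0.38 ± 0.14, 0.575). The median was -0.24 for skeletal myoblasts, with Myod1 at -0.34 ± 0.14 (SE) and Tnnt1 at -0.39 ± 0.16. It was 0.11 for the lens list and -0.08 for immediate early genes, of which Junb had -0.20 ± 0.18 (SE) and Ier2 -0.19 ± 0.29.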

How the data were processed

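Periotic tissue of 10 embryos (5 mutants, 5 controls) was hybridised to 1 array each. The deposited values are log2 signals. Per the submitters' processing notes, the authors summarised them by RMA, using Expression Console 1.1 from Affymetrix. RMA subtracts background and gives all arrays 1 distribution, which can hide a change common to most genes. The version of the probe file is not known here. The number of arrays limits the precision.

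Of 35557 probe sets, 21789 carried 1 gene symbol in the platform annotation, 1621 several, and 12147 were unlisted. Gene IDs matched 21698 to RefSeq symbols (GRCm38.p6), and the probe set of highest mean stood for each of 19938 genes. The 2 groups were tested in limma (version 3.58.1, R 4.3.3) with an intensity trend in the eBayes step, two-sided. P-values were adjusted by Benjamini-Hochberg across all 21789, and 0.05 was the threshold. This step was also run on simulated data with independent normal noise, without array classes or outlying arrays. No conclusion is drawn from that run. Exact permutation over the 252 splits was two-sided and unadjusted, with a smallest p of 0.00794. Correlations used 100000 permutations. The members, lists and tests were chosen with earlier results of these data known. Genes named are the 9 members, the 3 genes most like each by Pearson r, the 2 genes of smallest p in each list described, Tbx1, and checks of tissue and array class. Others are said to be chosen after their values were seen.

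Between a mutant and the control that shares its number, deviations from the group means had a correlation of 0.122 to 0.247, against -0.392 to 0.382 for unlike numbers. All 5 values exceeded 0.1, the bound used for a fit with the number as a block. Of the 5 mutants, 2 correlated most with the control of their own number. The 2 classes of arrays also follow the number in both groups, so these values cannot tell pairing from class. The block fit is therefore given as an alternative, and the labels do not state a pairing. Alternatives covered scaling, filters, blocks, sex, array weights, probe set choice and left-out arrays.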

Additional observations from a re-analysis of the deposited data

Results flagged for a closer look

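Among 26 groups of 5 arrays examined for 1 array far from the rest (the 9 members and 4 list means, in mutants and in controls), 3 were marked, where chance gives about 1.3. Sox21 in mutant 5 read 7.87, against 6.90 to 7.16 in the other mutants. The mean of the neural tube list in mutant 5 was 0.99, against -0.10 to 0.06 in the other mutants. Lgr5 in control 5 read 8.55, against 8.34 to 8.37 in the other controls.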

How the results depend on the processing

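No member passed the limma threshold under any of 14 alternatives or with any 1 of the 10 arrays left out. With the replicate number as a block 0 of 9 members passed, and the Sox2 difference stayed 0.52 (limma adjusted p 0.452). The block took the Sox2 interval past 0 (0.06 to 0.98, unadjusted limma p 0.0316, against 0.0567 without the block). No other member had an unadjusted limma p under 0.05 with the block, and no adjusted call changed. Sox2 and Sox21 kept a higher mean in mutants and Gfi1 a lower one in all 14 alternatives. The sign turned for Atoh1 (-0.03), Prox1 (-0.06), Lgr5 (0.07) and Cdkn1b (-0.05) within arrays numbered 1 to 3, and for Gata3 (0.23) and Pou4f3 (-0.24) within those numbered 4 and 5. With sex as a covariate it turned for Atoh1 (-0.01) and Gata3 (0.01), with array weights for Atoh1 (-0.17), and with all probe sets averaged for Cdkn1b (-0.04). Leaving out mutant 5 and control 4 together, chosen after seeing the data, turned Cdkn1b (-0.05). The causes were not tested.

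Leaving out 1 array gave log2 differences of 0.24 to 0.66 for Sox2, -0.26 to 0.33 for Atoh1, -0.15 to 0.08 for Gata3, -8.75e-05 to 0.13 for Prox1 and -0.05 to 0.19 for Sox21. It gave -0.14 to -0.03 for Lgr5, -0.04 to 0.07 for Cdkn1b, 0.08 to 0.28 for Pou4f3 and -0.17 to -0.10 for Gfi1. Over all genes 2 were called, 1 among genes above background, 1 within numbers 1 to 3 and 0 within numbers 4 and 5. The count of members with an exact permutation p under 0.05 was 1, and 0 after quantile normalization, after median centring and without mutant 5 and control 4, and 0 to 1 with single arrays left out. The 2 relations between members became 0 without mutant 5 and control 4 and 0 to 3 with single arrays left out. The count was 0 without any 1 of mutants 2, 3, 4 and 5 or of controls 1, 4 and 5, so most single omissions removed both. The 1 relation with a list became 2 on deviations from the group means and 0 to 2 with single arrays left out. The exact test within arrays numbered 1 to 3 cannot go below 0.1 and was not read.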
